A study of Rattus norvegicus with 12 samples.

Results

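The vehicle-treated cultures of neonatal rat skin-derived precursors (SKPs) are described here: what these cells transcribed before any drug was added. They were chosen by their sample titles, which name the vehicle, and they make up 3 of the 12 arrays of the series. Of the features of the array, 18166 genes carried 1 gene symbol and were ranked by their mean signal on the 3 vehicle arrays. SKPs are cells from the dermis of the skin that grow as floating spheres in medium with growth factors. The study dissociated spheres of the second passage from newborn Sprague-Dawley pups and hybridised total RNA of each culture to an Affymetrix Rat Gene 2.0 ST array. The design text speaks of 3 independent isolates of cells. The growth medium of all groups held EGF at 20 ng/ml, FGF2 at 40 ng/ml and 2% B27, so the cells at rest here had been grown with growth factors. The groups of 3 arrays were vehicle, 100 nM alprostadil, 100 nM trimebutine maleate, and 100 nM trimebutine maleate together with 100 nM trametinib, each for 24 h. The vehicle's substance and the number of pups per isolate are not given. No sort of the cells is described, so each value is an average over every cell in the culture.

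Dermal fibroblasts, the dermal papilla at the base of the hair follicle and the precursors that SKPs are grown from build the collagen-rich matrix of the skin. Cells of the dermal papilla send Wnt, FGF and BMP pathway signals to the hair epithelium, and Sox2 marks a subset of them. SKPs were named for their ability to make both mesodermal and neural crest-type progeny, and they have been described by Nes, Sox2, Snai2, Twist1, Pdgfra and collagen transcripts.

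A signal in this report is the deposited log2 value of an array feature, so that a difference of 1 is a doubling. Features differ in how well their probes bind, so a rank by signal is an order of brightness and not an order of RNA amount. Since the files give no detection calls, a background line was set on each array at the 95th percentile of 1344 olfactory and vomeronasal receptor genes, which serve in the nose. These had a median vehicle signal of 4.51, and the lines lay at 6.33, 6.39 and 6.50 on vehicle arrays 1, 2 and 3. A gene was called above background when it passed the line on all 3 arrays, near background when it passed it on none, and mixed otherwise. By this rule 10778 of 18166 genes (59.3%) were above background, 6467 (35.6%) were near it and 921 (5.07%) were mixed. A stricter line at the 99th percentile of the nose receptor genes left 8265 genes (45.5%) above it. The shares of all genes given in this report count the nose receptor genes too, of which 54 (4.02%) were above background. Without them these shares would be higher, so a list set beside them looks more expressed than it otherwise would. The median signal over all genes was 7.08. The 3 arrays correlated at 0.991 to 0.995 over genes, which are not independent replicates. Among genes above the line, the median SD over the 3 arrays was 0.090 and the median range was 0.172.

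**Figure D1:**
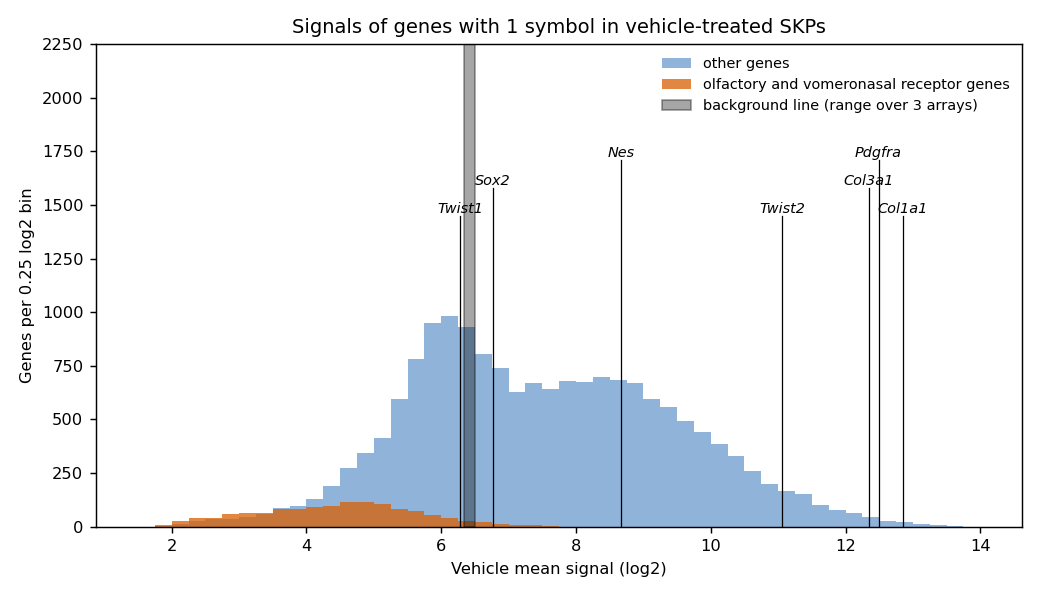
Number of genes (vertical axis) in bins of vehicle mean signal (horizontal axis, log2), for olfactory and vomeronasal receptor genes and for all other genes, with the grey band marking the range of the background line over the 3 arrays. The receptor genes of the nose centre on 4.51, and of the 7 measured markers of SKPs Twist1 lies left of the band and Sox2 just right of it, while Nes, Twist2, Col3a1, Pdgfra and Col1a1 lie further right.

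The brightest genes at rest were those of a secretory mesenchymal cell next to genes that every cell uses. COX3 and COX1, subunits of mitochondrial cytochrome oxidase, led with 13.60 ± 0.04 and 13.53 ± 0.03 (SD, n = 3). Vim, the intermediate filament of mesenchymal cells, followed with 13.51 ± 0.04 and Lgals1, a secreted galectin, with 13.51 ± 0.02. Of the other 16 among the 20 brightest, 5 are secreted proteins of the matrix or act on it. Dcn, a small proteoglycan that binds collagen, had 13.42, 13.42 and 13.43 on arrays 1 to 3. Fn1, the adhesive protein fibronectin, had 13.38, 13.32 and 13.30, and Bgn, a relative of Dcn, had 13.16, 13.14 and 13.18. Mmp2, a gelatinase, had 13.15, 13.12 and 13.21, and Mgp, an inhibitor of calcification, had 13.16, 13.16 and 13.14. None of these 5 genes differed between arrays by more than 0.10. The remaining 11 were Ftl1, Rps29, Eef1a1, Hspa8, Rpl23, Tubb5, Actb, Rpph1, S100a11, B2m and Anxa5, which serve iron storage, translation, protein folding, the cytoskeleton, RNA processing, calcium binding and antigen display. Their signals ran from 13.14 for Anxa5 to 13.46 for Ftl1.

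Among the 100 brightest genes, all at 12.35 or more, 15 belonged to the matrix lists described below and 16 were ribosomal proteins. The median SD over the 3 arrays was 0.051 in this set and the largest was 0.334. Each single vehicle array shared 95, 94 and 93 of its own top 100 with that of the mean. The top 100 under alprostadil shared 92 genes with it, that under trimebutine 96, and that under trimebutine with trametinib 80. Against vehicle, limma called 0 of the 100 with alprostadil (background 0.323% higher and 0.066% lower), of which 4 had an unadjusted p under 0.05, and 1 once replicate number was a block. With trimebutine it called 0 of all 13636 genes tested (0%), of which 143 had an unadjusted p under 0.05 (252 with the block). On simulated data for this comparison the fit recovered 64% of changes of 0.5 and 100% of changes of 1. The simulated arrays varied independently, without shared differences by replicate number. Those rates do not hold for genes that differ widely by number, such as Lyz2, whose trimebutine change had an SE of 1.08 without the block. With trimebutine and trametinib it called 14 higher (background 17.5%) and 22 lower (background 17.5%).

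Of the 8 marker genes given for these cells, 7 were measured by a feature with 1 symbol; Snai2 was not analysed here. Col1a1, a chain of the main collagen of skin, had 12.82, 12.81 and 12.92 on vehicle arrays 1 to 3. Col3a1, its partner in young dermis, had 12.31, 12.27 and 12.44. Pdgfra, the receptor that marks dermal fibroblast precursors, had 12.52, 12.45 and 12.50. These 3 genes ranked 40, 101 and 78 of 18166 by signal and varied by at most 0.17 between arrays. Twist2, a mesenchymal transcription factor of the dermis, had 11.02, 10.98 and 11.16 (rank 634). Nes, an intermediate filament of precursors, had 8.80, 8.66 and 8.53 (rank 4835). It was well over the line and over the median of 7.08 of all genes, but dimmer than Col1a1, Col3a1, Pdgfra and Twist2. Twist1, a relative of Twist2, had 6.30, 6.38 and 6.16 and stayed at or under the line on all 3 arrays. Sox2 had 6.30, 6.50 and 7.48: it was under the line on array 1, just over it on array 2 and clearly over it on array 3. So 5 of the 7 measured markers were above background, beside 59.3% of all genes, while Sox2 was mixed and Twist1 was near background. Col1a1, Col3a1, Pdgfra, Twist2 and Nes were thus above background on every array, and Sox2 and Twist1 were not.

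A longer list of dermal precursor and neural crest genes had 31 measured members, with a median signal of 8.39 beside 7.08 over all genes. Of them 26 were above background, 4 near it and 1 mixed, beside 59.3% of all genes above. With the stricter line 20 were above, beside 45.5% of all genes. Vim, Pdgfra, Thy1, Prrx1, Dlk1 and Twist2 were the brightest. Thy1, a surface glycoprotein of fibroblasts, had 12.35, 12.35 and 12.28. Prrx1, a homeobox factor of limb and skin mesenchyme, had 11.52, 11.64 and 11.75, and Dlk1, a surface protein of precursor cells, had 11.55, 11.46 and 11.53. Neural crest factors were dimmer. Ngfr, the low-affinity neurotrophin receptor of crest cells, had a mean of 8.39 ± 0.04, Snai1 7.87 ± 0.24, Sox10 7.08 ± 0.09, Foxd3 6.93 ± 0.18, Msx1 6.70 ± 0.06 and Sox9 6.63 ± 0.06 (SD, n = 3). The members near background were Twist1 (6.28), Pax3 (6.01), Msx2 (5.85) and Tfap2a (5.76), all transcription factors of the neural crest. En1, which marks the dermal lineage of the back, had 7.91, 7.77 and 7.93.

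Of 26 measured dermal papilla genes, 19 were above background, 6 near it and 1, Bmp6, mixed, beside 59.3% of all genes above. With the stricter line 14 were above, beside 45.5% of all genes. Vcan, the proteoglycan of the papilla's matrix, had 12.64, 12.68 and 12.57, and Crabp1, a retinoic acid binding protein, had 12.20, 12.31 and 12.83. Fgf10 and Fgf7, which signal to the epithelium, had means of 10.33 ± 0.16 and 10.26 ± 0.31, and the transcription factors Tbx15, Trps1 and Alx4 had 9.96 ± 0.10, 9.54 ± 0.29 and 9.46 ± 0.16. Near background were Alpl (6.26), the alkaline phosphatase by which papillae are stained, Nog (6.12), Corin (5.95), Sox18 (5.48), Hhip (5.31) and Prom1 (4.35).

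Genes of the extracellular matrix were mostly above background. Of 132 measured genes in 7 matrix lists, 112 passed the line, beside 59.3% of all genes. For the fibrillar collagens and the enzymes that assemble them the count was 23 of 24, with a median signal of 9.76; Col24a1 (6.02) was the exception. Col1a2, the second chain of type I collagen, had 12.48, 12.41 and 12.49. Loxl1 and P4hb, which crosslink and hydroxylate collagen, had 12.16 ± 0.02 and 12.13 ± 0.06, and Serpinh1, the collagen chaperone, had 11.64 ± 0.11. Of 20 other collagens 16 were above background; with the stricter line 10 were, beside 45.5% of all genes. Col6a3 (11.62), Col6a2 (11.55), Col12a1 (11.26) and Col8a1 (10.94) led, and Col4a5, Col9a1, Col10a1 and Col6a6, collagens of basement membrane, cartilage and microfibrils, were near background.

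Of 11 basement membrane genes 9 were above background, beside 59.3% of all genes. Nid1, which links laminin to type IV collagen, had 12.82, 12.70 and 12.82, and the laminin chain Lama2 had 11.68, 11.61 and 11.65. Lama1 (6.22) and Lamb3 (5.44), the latter a chain of the epidermal laminin, were near background. Of 14 elastic fibre genes 13 were above, led by Efemp1 with 12.50, 12.26 and 11.91, and by the fibrillin Fbn1 with 11.24, 11.27 and 11.37. Eln itself, the elastin gene, had 7.79, 7.72 and 8.38. Of 23 proteoglycan and hyaluronan genes 17 were above: after Dcn and Bgn came Vcan (12.63), the syndecan Sdc2 (12.25) and Lum (12.18), while the cartilage proteoglycan Acan (6.17), Fmod (5.82), Bcan and the hyaluronan synthase Has1 (5.48) were near background. Its relative Has2 had 9.73, 9.78 and 10.11, and Has3 was mixed.

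Among 15 adhesive and matricellular proteins 12 were above background, beside 59.3% of all genes. Sparc, which binds collagen during its assembly, had 12.86, 12.81 and 12.95, Postn 12.96, 12.78 and 12.80, and Spp1, osteopontin, 12.60, 12.60 and 12.75. Vtn (5.71) and the neural tenascin Tnr (6.07) were near background. Enzymes that degrade matrix were also among the brightest genes. Mmp3, a stromelysin, had 12.97, 12.95 and 13.11, Mmp14, which sits in the membrane and activates Mmp2, had 12.85, 12.52 and 12.50, and Mmp13, a collagenase, had 12.29, 12.12 and 12.28. Their inhibitors Timp1 and Timp2 had 12.96 ± 0.03 and 12.40 ± 0.02 (SD, n = 3). Of 25 proteases and inhibitors 22 were above background, and Mmp7 (5.69), Mmp8 (5.63) and Timp4 (5.40) were near it.

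Growth factor genes were a more mixed repertoire, with 89 of 131 above background, beside 59.3% of all genes. For the FGF, EGF and HGF families the count was 9 of 24, below the 59.3% of all genes, and 5 with the stricter line. Besides Fgf10 and Fgf7 only Hbegf, Fgf1, Fgf2, Nrg1, Fgf4, Hgf and Fgf22 passed, at 6.71 to 7.81. Fgf2, which the medium supplied, had 7.24, 7.25 and 7.57, and Egf, the other added factor, was mixed with 6.60, 6.49 and 6.41. The 12 members near background were Tgfa, Ereg, Mst1, Fgf3, Fgf21, Btc, Fgf20, Fgf8, Fgf16, Fgf9, Fgf13 and Epgn. These transcripts do not tell the level of a factor that was added as protein.

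The PDGF, VEGF, IGF and angiopoietin group, with IGF binding proteins and the kinase ligands of Kit and Csf1r, had 21 of 24 above background and a median signal of 9.96. Igfbp7 had 12.66, 12.63 and 12.57, Igfbp4 12.16, 12.17 and 11.90, and Csf1, the macrophage growth factor, 12.32, 12.56 and 12.40. Vegfa, which attracts vessels, had 10.99, 10.91 and 10.80, and Kitlg, the ligand of Kit on melanocytes and mast cells, had 10.66, 10.70 and 10.70. Pdgfb (6.01) and Pgf (5.85) were near background. Of 24 genes of the TGF-beta and BMP branch 18 were above, beside 59.3% of all genes, or 10 with the stricter line, beside 45.5%. Fstl1 had 11.08 ± 0.08, the BMP antagonist Grem1 10.49 ± 0.09, Bmp2 10.39 ± 0.07 and Tgfb1 10.21 ± 0.14, whereas Bmp4 had 7.03 ± 0.25 and the antagonists Nog (6.12) and Chrdl1 (6.01) were near background.

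Wnt ligands and their secreted modulators were above background in 14 of 26 cases, beside 59.3% of all genes, and in 6 with the stricter line, beside 45.5%. The inhibitor Sfrp1 had 10.69, 10.28 and 11.30, the ligand Wnt5a 9.46, 9.62 and 9.83, and Rspo4, an enhancer of Wnt signals, 8.59, 8.65 and 9.17. The 10 members near background included Wnt1, Wnt3a, Wnt7a, Wnt10a and Wnt10b. Of 33 cytokines, chemokines and neurotrophins 27 were above background, or 17 with the stricter line. Ccl2, which attracts monocytes, had 12.31, 12.49 and 12.49 and led the list, followed by Ccl7 (10.01), a related chemokine, and Cxcl12 (9.42), which guides leukocytes and stem cells. Only Tslp (6.08) and Ntf3 (5.72) of this list were near background.

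On the receiving side 103 of 134 genes were above background, beside 59.3% of all genes. Besides Pdgfra, the brightest receptor tyrosine kinases were Ddr2, a collagen receptor, with 11.30, 11.31 and 11.48, Fgfr1 with 11.26, 11.40 and 11.30, Axl with 11.31, 11.35 and 11.29, and Pdgfrb with 11.23, 10.94 and 11.15. Egfr, the receptor of the added EGF, had 10.61, 10.22 and 9.97, and Igf1r had 10.07 ± 0.11. In all 21 of 32 receptor kinases passed, near the 59.3% of all genes; Kit (5.58), Erbb4 (5.33), Ret (5.73), Tek (5.60), Tie1 (5.67), Flt3 (5.85), Mst1r, Ntrk3 (6.15) and Fgfr4 (6.30) were near background. Kitlg was therefore above background while its receptor gene Kit was not.

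Of 33 TGF-beta, BMP, Wnt and Notch receptors and ligands 26 were above, led by Notch2 with 11.37, 11.61 and 11.46, the coreceptor Tgfbr3 (10.98) and Bmpr2 (10.73). Lgr5 (5.71), a Wnt pathway receptor of epithelial stem cells, was near background. Cytokine receptors were above in 24 of 25 cases. Il6st, the shared subunit of the interleukin-6 receptor family, had 12.02, 12.05 and 11.96, Il1r1 had 11.75 ± 0.06 and Osmr had 11.46 ± 0.14. Of 17 integrin subunits 12 were above, or 8 with the stricter line, beside 59.3% and 45.5% of all genes. Itgb1 was at 12.35, and Itga7, Itgb6 and Itgb7 were near background.

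The targets of the drugs used elsewhere in the study were read at rest as well. Alprostadil is prostaglandin E1, which acts on EP receptors and the prostacyclin receptor. Ptgir, the prostacyclin receptor gene, had 9.25, 9.13 and 9.11, and Ptger4, the gene of EP4, had 8.81, 8.73 and 8.73. Ptger3 had 7.66, 7.51 and 8.69, so array 3 stood a log2 unit over the others, and Ptger2 had 6.75, 6.60 and 7.19. Trimebutine acts on opioid receptors and ion channels. Oprd1, the delta receptor gene, had 6.74, 6.76 and 7.04, just over the line, and Oprm1 (5.35), Oprk1 (5.90) and Oprl1 (5.83) were near background. The calcium channel genes Cacna1g and Cacna1c had 8.42 ± 0.19 and 7.87 ± 0.03. Of these 18 receptor and channel genes 11 were above background, near the 59.3% of all genes, and 5 with the stricter line, beside 45.5%. All 9 measured kinases and adaptors of the ERK cascade, which trametinib blocks at MEK, were above background, Map2k1 at 9.82 ± 0.04 and Map2k2 at 9.44 ± 0.06.

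Positional genes passed less often than all genes with the line as set, but less clearly so with looser lines. Of 32 measured Hox, Tbx and Pitx genes 13 were above background and 4 with the stricter line, beside 59.3% and 45.5% of all genes. With the line at the 90th percentile 18 were above, beside 68.3% of all genes. At the 25th percentile of features with 1 symbol 22 were, near the 72.5% of all genes. Hoxc8, a gene of trunk positions, had 10.36, 10.27 and 10.42, and Hoxc9 had 8.89, 8.83 and 8.87. Hoxb2 (7.74), Hoxc4 (7.68) and Hoxa7 (7.21) came next by brightness. Hoxa13 (5.17) and Hoxd13 (4.91), genes of the distal limb, and the limb factors Tbx4 (5.81), Tbx5 (6.01) and Pitx1 (5.89) were near background.

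**Figure D2:**
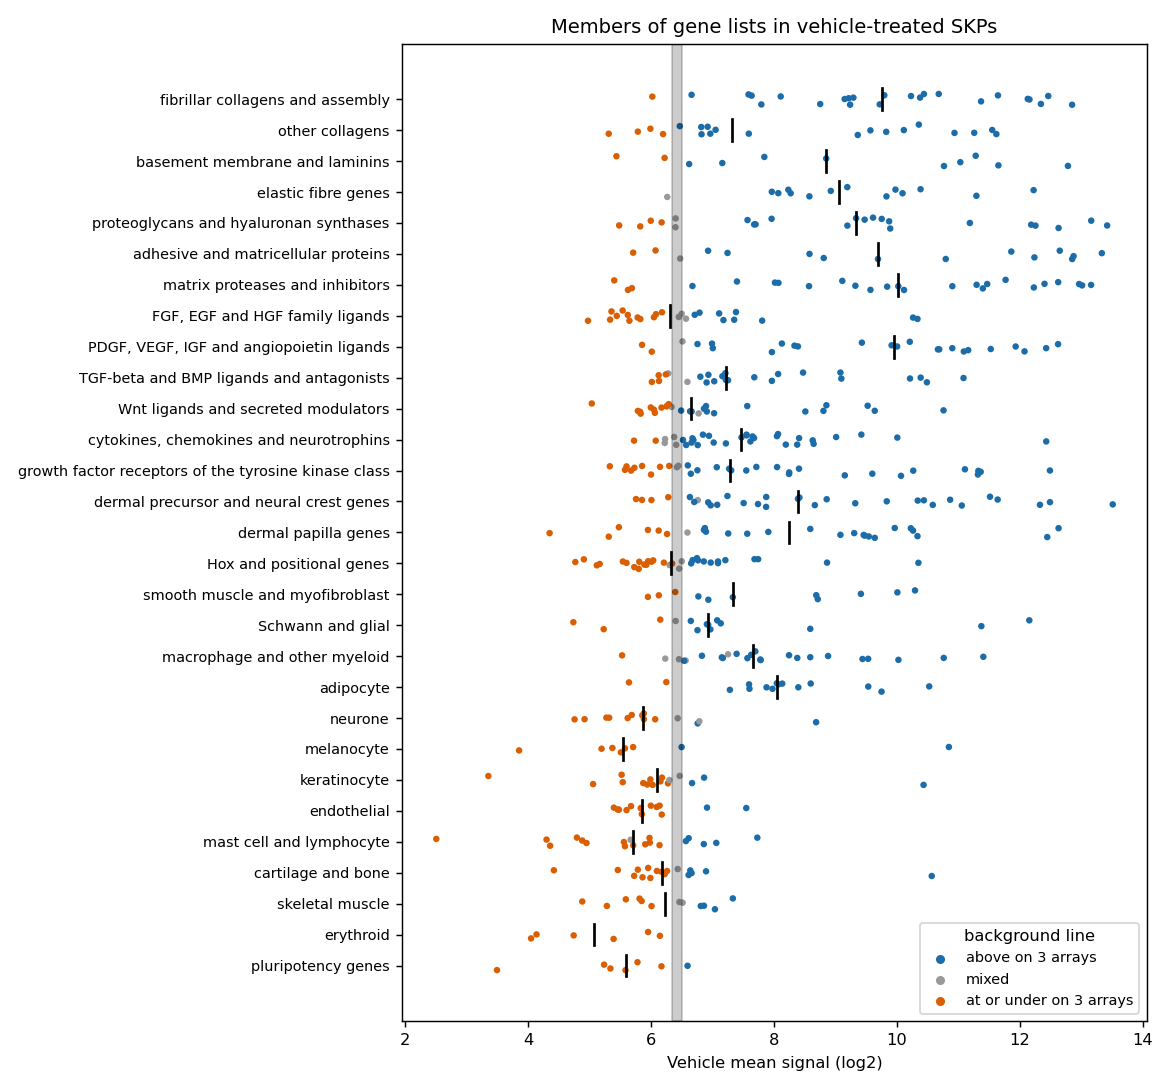
Vehicle mean signal (horizontal axis, log2) of each measured gene in 29 of the 37 lists (vertical axis), coloured by its place against the background line, with a black tick at each list's median and a grey band for the range of the line over the 3 arrays. Matrix lists, PDGF, VEGF and IGF ligands, macrophage genes and adipocyte genes have medians between 7.32 and 10.02, whereas neurone, melanocyte, keratinocyte, endothelial, lymphocyte and erythroid genes have medians under 6.33.

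Genes that mark other cells fell into groups with most members near background and groups with most members above it. Near background means not over the line: list medians in the first kind, from 5.07 (erythroid) to 6.09 (keratinocyte), were over the nose genes' 4.51. The first kind held erythroid genes (0 of 6 above), pluripotency genes (1 of 7), neurone genes (2 of 14), endothelial genes (2 of 13), melanocyte genes (2 of 8), keratinocyte genes (3 of 16) and mast cell and lymphocyte genes (5 of 19), beside 59.3% of all genes. Some of these counts were higher with a looser line. At the 90th percentile of the nose genes, with 68.3% of all genes above, they were 8 for keratinocyte, 4 for neurone and 4 for endothelial genes. At the 25th percentile of features with 1 symbol, with 72.5% of all genes above, they were 12, 5 and 6. With the line as set, the defining genes were near background: Epcam (3.35), Krt14 (6.03) and Tp63 (5.54) of epithelium, Tyr (3.85) and Dct (5.71) of pigment cells, Cdh5 (5.83) and Vwf (5.85) of vessels, Cd3e (5.56) of T cells, Pou5f1 (5.58) and Nanog (5.34) of pluripotent cells, Dcx (4.76) and Tubb3 (5.62) of neurones, and Hba-a1 (4.05) of red cells. Of the 15 genes above background in these lists, 12 had means of 6.50 to 7.73: Pmel, Cd79a, Lin28a, Tpsb2, Krt17, Elavl3, Cd5, Grhl3, Egfl7, Cd79b, Flt1 and Cd4. The other 3 were brighter. Mitf, a factor of pigment cells and also of macrophages and mesenchyme, had 11.04, 10.69 and 10.80, Cldn1, a tight junction protein, had 10.81, 10.24 and 10.24, and Map2 had 8.83, 8.27 and 8.95. Among Schwann and glial genes, 10 of 14 were above background but 3 with the stricter line, beside 59.3% and 45.5% of all genes. Egr2, a factor of myelinating glia that growth factors also induce, had 12.41, 11.99 and 12.05, and Pmp22 had 11.37 ± 0.08. Gfap (6.15), Cdh19 (5.23) and Fabp7 (4.74) were near background.

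Smooth muscle genes were above in 8 of 11 cases and pericyte genes in 7 of 9, beside 59.3% of all genes, or 5 and 3 with the stricter line, beside 45.5%. Tpm2 had 10.29 ± 0.20 and Tagln 9.41 ± 0.21, while Myocd, the master factor of smooth muscle, was at 6.39 and near background. Cartilage and bone genes were above in 5 of 17 and skeletal muscle genes in 4 of 12, beside 59.3% of all genes. With the line at the 90th percentile these counts were 9 and 6, beside 68.3% of all genes. At the 25th percentile of features with 1 symbol they were 12 and 7, beside 72.5%. Runx2, a factor of bone and of connective tissue, had 10.67, 10.53 and 10.50, but Acan, Sox5, Sox6, Ibsp and Dmp1 were near background. Genes of cell division were also expressed: all 23 measured mitosis and cyclin genes were above background, with Mki67 at 11.09, 11.44 and 11.05 and Top2a at 10.37, 10.59 and 10.31. All 11 measured housekeeping genes were also above it.

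Markers of macrophages and other myeloid cells were mostly above background. Of 24 measured, 19 were above it, beside 59.3% of all genes, 4 were mixed and 1, Cd163, was near it. With the stricter line 11 were above, the same share as the 45.5% of all genes. Lyz2, the lysozyme of macrophages and other myeloid cells, had 9.80, 11.60 and 12.81 on vehicle arrays 1, 2 and 3. Cybb, a subunit of their NADPH oxidase, had 8.03, 9.31 and 10.98, and Ptprc, the leukocyte antigen CD45, had 6.25, 7.06 and 8.44. For each of these genes array 3 was highest and array 1 lowest, with steps many times the 0.172 that was the median range of genes above background. Spi1, the master factor of myeloid cells, had 6.98, 7.69 and 8.67, and Csf1r, the receptor of Csf1, had 7.47, 8.22 and 9.04. Cd68, a lysosomal protein that fibroblasts also make, did not follow: it had 10.84, 10.63 and 10.81. The median signal of the 24 genes was 7.02, 7.55 and 8.48 on the 3 arrays, and the sum of their linear signals was 6646, 10322 and 20328. Since these are bulk samples, more cells of a type and more RNA per cell cannot be told apart.

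Adipocyte genes gave the same order of arrays. Of 15 measured 13 were above background, or 11 with the stricter line, beside 59.3% and 45.5% of all genes. Adipoq, the hormone adiponectin, had 8.44, 9.75 and 10.41, and Fabp4, a fatty acid carrier of fat cells and also of some macrophages, had 8.77, 9.72 and 10.76. Cidec, a lipid droplet protein, had 6.72, 7.65 and 8.42, and Plin1, another, had 7.23, 8.23 and 8.75. Array 3 was highest and array 1 lowest for all 4 of these genes. Pparg, the master factor of fat cells, had 7.62, 7.39 and 7.80, and Cebpb had 7.95, 7.89 and 7.80, without that order. Leptin (Lep, 5.64) and Plin4 (6.25) were near background. The list's medians were 7.62, 8.08 and 8.43, and its summed linear signals were 4027, 5641 and 8961.

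The treated arrays of the same replicate number were used to look at these differences beyond the vehicle group. The main test held all 12 arrays, so it includes the vehicle arrays on which the order was seen. Deviations from the group means correlated positively in all 18 pairs of same-numbered arrays from different groups (r from 0.21 to 0.81). The replicate number was therefore a term in the test below. It was not a term in the main contrasts against vehicle, where it entered only as an alternative, the replicate block. Whether a number marks an isolate, a day of culture or a run of arrays cannot be told apart, since the labels do not say. In a limma model of all 12 arrays with a mean per group, the moderated F test called 1961 of 13636 genes (14.4%) by replicate number at a Benjamini-Hochberg adjusted p under 0.05. Number 3 was highest for 1048 of them, number 1 for 529 and number 2 for 384. For 149 the largest difference between numbers exceeded 1. With the 9 treated arrays alone, 860 genes were called, 843 of them among the 1961, and 840 of those ran in the same direction. Since these 9 arrays are among the 12, this overlap is largely built in and gives no independent support. The F test takes the cultures that share a number as replicates, so its p-values do not measure the spread between isolates.

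Of the macrophage list 19 of 23 tested genes differed by replicate number, beside 14.4% of all genes, and all 19 were highest in number 3. With the treated arrays alone 17 were called. Lyz2 was 3.03 ± 0.13 (SE) higher in number 3 than in number 1 (limma adjusted p = 2.3e-06), and Ptprc was 2.17 ± 0.09 higher (limma adjusted p = 2.3e-06). Adgre1, C3ar1, Cx3cr1 and Cd68 did not pass. Of the adipocyte list 11 of 14 tested genes differed, again all highest in number 3, and all 11 were called on the treated arrays alone. Adipoq was 2.00 ± 0.08 (SE) higher in number 3 than in number 1 (limma adjusted p = 2.3e-06). Lpl, Pparg and Cebpb did not pass. In each of the 4 groups number 3 was highest and number 1 lowest for Lyz2, Ptprc and Adipoq.

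**Figure D3:**
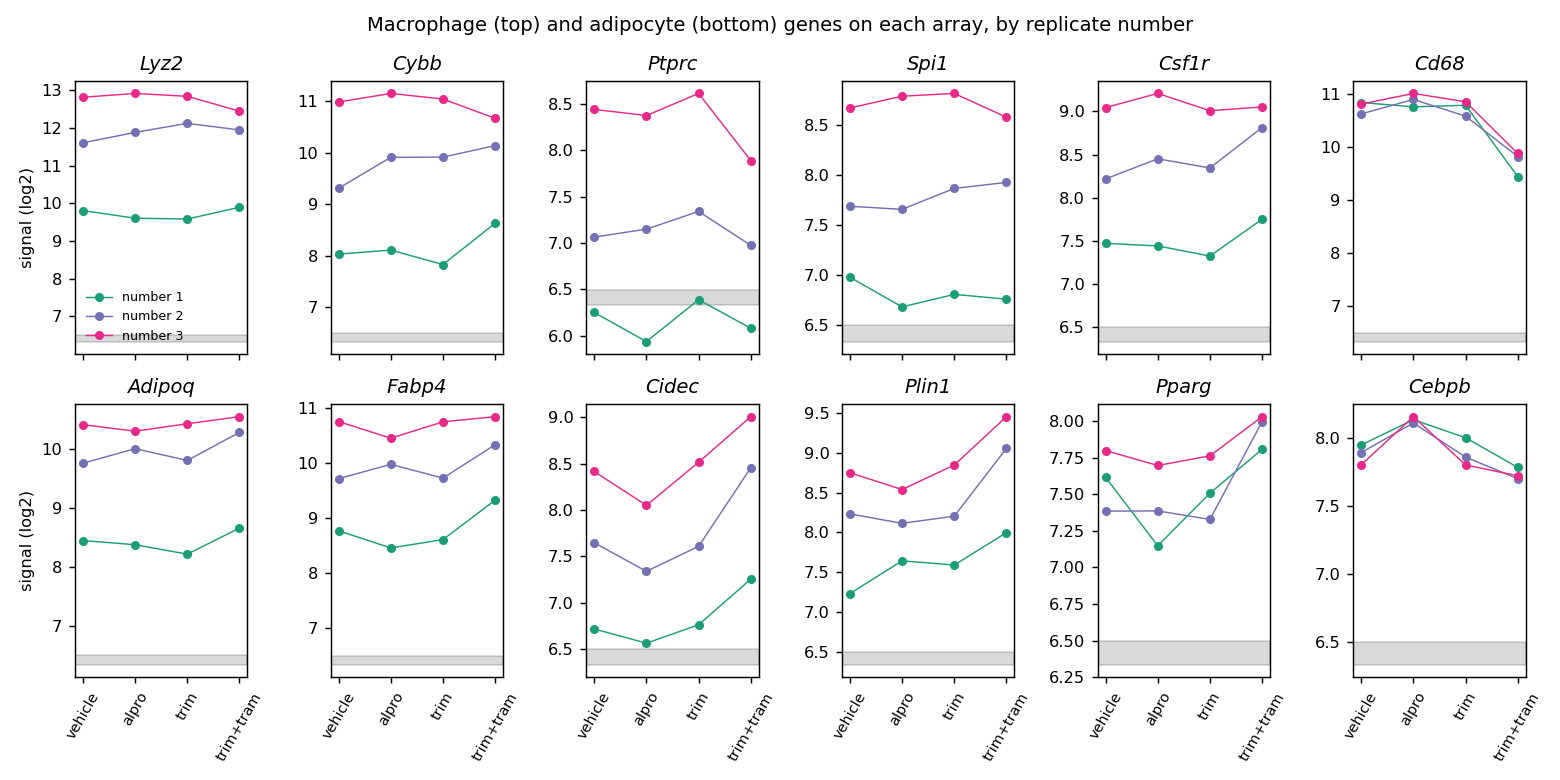
Signal (vertical axis, log2) of 6 macrophage genes (top) and 6 adipocyte genes (bottom) on each of the 12 arrays, by treatment group (horizontal axis); points joined by a line share a replicate number, and the grey band marks the range of the background line on the vehicle arrays. Lyz2, Cybb, Ptprc, Spi1, Csf1r, Adipoq, Fabp4, Cidec and Plin1 have number 3 highest and number 1 lowest in all 4 groups, whereas Cd68, Pparg and Cebpb do not.

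The 10 genes with the smallest adjusted p by replicate number were Adipoq, Clec7a, Ptprc, Lyz2, Cidec, Spi1, Ccl6, Adgrf5, Gpd1 and Lyn. Clec7a, a receptor for fungal glucans on myeloid cells, spanned the widest range, with 5.01, 7.47 and 9.62 on the vehicle arrays. Ccl6, a chemokine of macrophages, had 7.18, 8.46 and 10.35, Lyn, a kinase of blood cells, had 6.91, 7.58 and 8.64, and Gpd1, an enzyme of fat metabolism, had 7.52, 8.38 and 9.04. Adgrf5, an adhesion receptor, ran the other way, with 9.62, 8.22 and 8.71: number 1 was highest. In the vehicle group alone, 116 of the genes above background (1.08%) ranged over more than 1 log2 unit, and 101 of them were highest on array 3. Of these 116, 11 were in the macrophage list and 7 in the adipocyte list. For 103 of the 116 the same number was also highest in each of the 3 treated groups, beside 21.2% of all genes above background.

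Genes of the dermal papilla also differed by number: 15 of 23 tested were called, beside 14.4% of all genes, 12 of them highest in number 3, and 11 were called on the treated arrays alone. Rspo3, a Wnt enhancer, had 7.16, 7.24 and 8.30 on the vehicle arrays, Lef1, a nuclear effector of Wnt signals, 6.86, 7.15 and 7.76, and Inhba, an activin subunit, 8.74, 8.96 and 9.54. Over all 12 arrays Rspo3 was 1.20 ± 0.09 (SE), Inhba 0.84 ± 0.06 and Crabp1 0.71 ± 0.06 higher in number 3 than in number 1 (limma adjusted p from 2.4e-05 to 7.7e-05). Vehicle array 3 was the highest for each of them. Enpp2, Ncam1, Trps1, Wnt5a, Itga8, Itga9, Crabp2 and Nog were also highest in number 3, whereas Fgf10 and Alx4 were highest in number 1 and Fgf7 in number 2. The summed macrophage signal ran in the same order, at 6646, 10322 and 20328 on vehicle arrays 1 to 3, and so did the summed adipocyte signal; the part of those cells in these results was not tested.

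Of the 7 measured SKP markers, Sox2 and Nes were called by replicate number, in opposite directions. Sox2 was 1.29 ± 0.18 (SE) higher in number 3 than in number 1 over all 12 arrays (limma adjusted p = 0.0021), and 0.017 was its adjusted p on the 9 treated arrays. Prdm1, a factor of dermal papilla and also of other lineages, had 6.53, 6.67 and 7.71 at rest and was 1.19 ± 0.12 (SE) higher in number 3 (limma adjusted p = 2.4e-04). Tfap2a, near background at rest with 4.99, 6.01 and 6.27, was 1.09 ± 0.10 (SE) higher (limma adjusted p = 1.8e-04). Nes was 0.25 ± 0.07 (SE) lower in number 3 (limma adjusted p = 0.048), a call lost on the treated arrays alone (limma adjusted p = 0.19) and with each array centred on its median. In all 9 of 31 tested dermal precursor genes were called, 4 highest in number 3 and 4 in number 1, beside 14.4% of all genes, so the list had no shared direction. Col1a1, Col3a1, Pdgfra, Twist1 and Twist2 did not pass (limma adjusted p from 0.15 to 0.41).

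**Figure D4:**
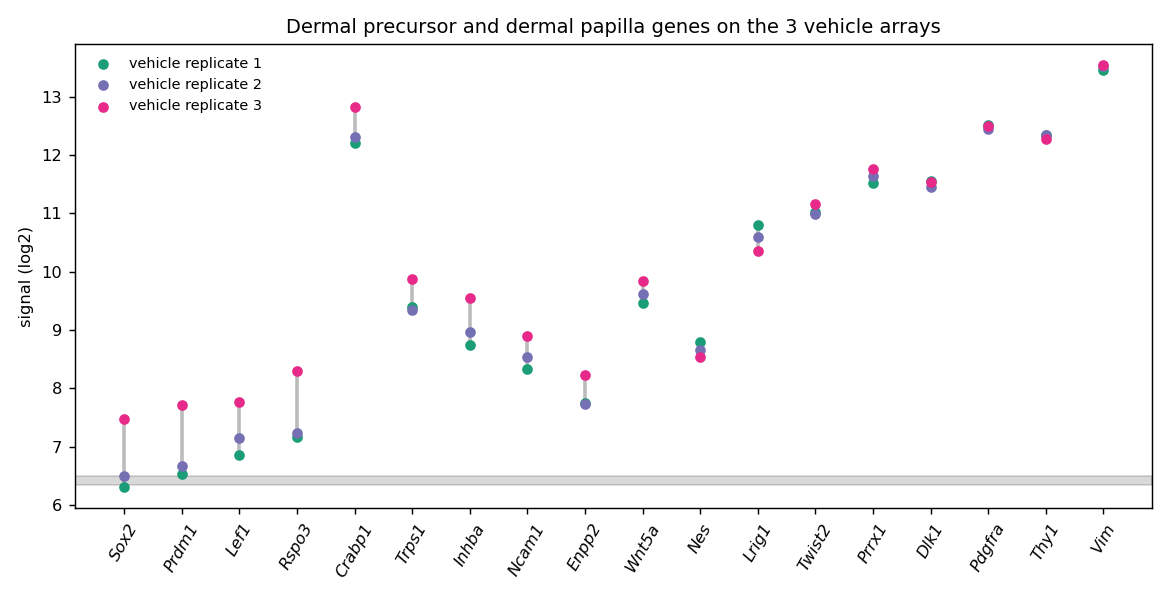
Signal (vertical axis, log2) of 18 dermal precursor and dermal papilla genes (horizontal axis) on the 3 vehicle arrays, one point per array, with the grey band for the range of the background line. Sox2, Prdm1, Lef1, Rspo3, Crabp1, Inhba and Ncam1 are highest on array 3, whereas the points of Pdgfra, Thy1, Dlk1 and Vim lie within 0.10 of each other.

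Growth factors followed the number as well. Igf1 had 7.34, 8.11 and 9.72 on the vehicle arrays and Igf2 had 10.64, 10.35 and 9.01, so the 2 insulin-like growth factors ran in opposite orders. Over the 12 arrays Igf1 was 2.03 ± 0.22 (SE) higher in number 3 than in number 1 (limma adjusted p = 5.1e-04) and Igf2 fell by 1.46 ± 0.09 (SE; limma adjusted p = 8.7e-06). Of the PDGF, VEGF and IGF list 13 of 24 were called, and of the TGF-beta and BMP list 12 of 24, beside 14.4% of all genes, with Bmp3 1.24 ± 0.10 (SE) and Bmp7 0.84 ± 0.14 higher in number 3. Bmp3, an antagonist among the BMPs, had 7.52, 7.80 and 8.87 at rest. Among matrix proteases 10 of 22 were called, beside 14.4% of all genes. Mmp11, a stromelysin of stroma, had 9.12, 9.67 and 10.72, Mmp16, a membrane protease, had 8.21, 8.23 and 9.27, and Mmp12, the macrophage elastase, had 8.91, 9.12 and 9.94. Of 32 cytokines 8 were called, beside 14.4%: Il18 had 5.06, 6.05 and 7.55, Ccl3 had 8.49, 8.87 and 9.67 and Il1b had 7.23, 7.35 and 8.45, each highest in number 3, while Il6 had 6.79, 6.47 and 5.87 and was highest in number 1. Il18, Il1b and Ccl3 are also made by macrophages, whose part in these values was not tested.

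Among the remaining lists, 9 of 14 elastic fibre genes, 9 of 16 integrin subunits, 8 of 14 adhesive proteins, 9 of 22 proteoglycan genes, 7 of 16 FGF, EGF and HGF ligands, 7 of 18 other collagens and 8 of 23 Wnt genes were called by number, beside 14.4% of all genes. Limma's F test called 0 of 10 basement membrane genes, 0 of 9 genes of the ERK cascade, 0 of 11 housekeeping genes and 0 of 8 endothelial genes, of which 1, 2, 0 and 2 had an unadjusted p under 0.05. Of 23 mitosis genes 3 were called, near the 14.4% of all genes, and 9 had an unadjusted p under 0.05 by limma's F test. In the vehicle group, however, 21 of the 23 were highest on array 2, beside 31.3% of all tested genes. Of 24 fibrillar collagen genes 8 were called, without a common order: Lox had 10.81, 10.83 and 10.40, and Serpinh1 had 11.62, 11.54 and 11.76. Across all genes above background the difference between arrays 3 and 1 in the vehicle group correlated at r = 0.806 with the mean of the same difference in the treated groups, a description across genes whose points share the isolates or runs behind the numbers.

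**Figure D5:**
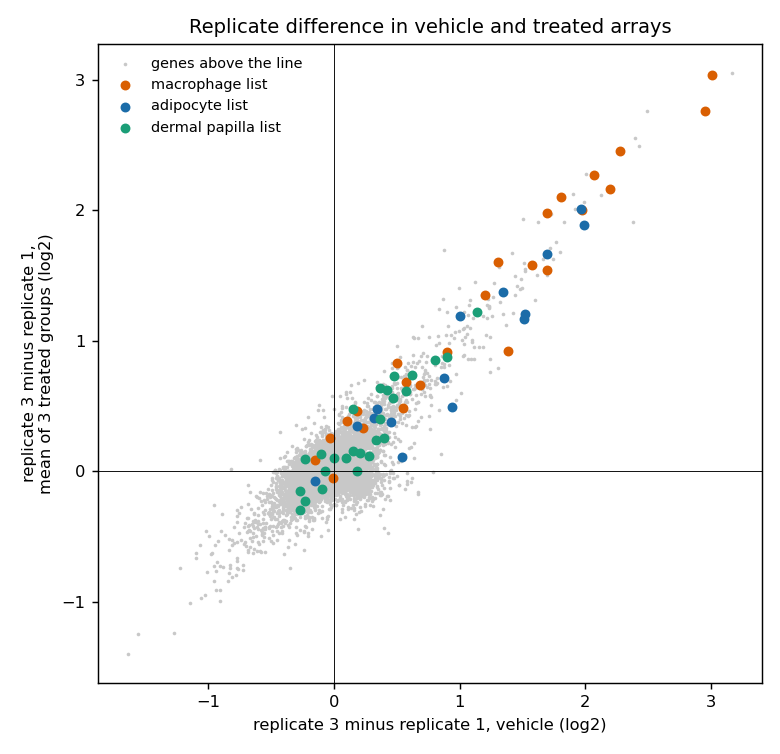
Difference in signal between arrays 3 and 1 (log2) in the vehicle group (horizontal axis) and averaged over the 3 treated groups (vertical axis), one point per gene above background, with macrophage, adipocyte and dermal papilla genes coloured. The points follow the diagonal (r = 0.806), and most macrophage and adipocyte genes lie in the upper right, with Lyz2 at 3.00 on the horizontal axis.

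Among 363 microRNA genes, 80 (22.0%) were above background and 255 near it, beside 59.3% above for all genes. These features measure RNA that holds the hairpin or its host transcript, not the mature microRNA. The 8 brightest were Mir21, Mir674, Mir185, Mir22, Mir221, Mir761, Mir345 and Mir214, chosen by brightness after their values were seen. Mir21 had 10.03, 9.56 and 9.78 on the vehicle arrays, Mir22 8.58, 8.71 and 8.45, Mir221 8.79, 8.34 and 8.38, and Mir214 8.22, 8.24 and 8.21. Mir221 was lower with trimebutine and trametinib, at 5.85 ± 0.20 beside 8.50 ± 0.25 at rest (SD, n = 3), a change of −2.65 ± 0.15 (SE; limma adjusted p = 2.0e-07). RefSeq entries of build GRCr8 held sequences for 352 of the 363 genes. Mature sequences of 4 of the brightest genes follow from the 5′ to the 3′ end, to show the products of the brightest hairpin genes; capitals mark the seed, bases 2 to 8, which pairs with target sites.
miR-21-5p: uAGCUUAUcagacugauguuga
miR-22-3p: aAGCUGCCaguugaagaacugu
miR-221-3p: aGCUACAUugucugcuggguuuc
miR-214-3p: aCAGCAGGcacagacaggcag
No seed is shared among these 4.

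The promoters of genes above and near background differed in base composition. In RefSeq's windows of 250 bases before to 50 after the start of each gene (GRCr8), all 27457 promoters had a median of 7 CpG dinucleotides. The 8853 promoters of genes above background had a median of 21 and the 4961 of genes near it 4. A GC box (GGGCGG, either strand) was in 62.3% of the former, 23.8% of the latter and 34.9% of all promoters. A TATA box (TATAAA, either strand) was in 6.81%, 20.8% and 14.3%. The 72 promoters held for the 100 brightest genes had a median of 21.5 CpG, a GC box in 68.1% and a TATA box in 19.4%. Whether the same promoters held both boxes was not computed. The sets above and near background were drawn from all genes, including the 1344 nose receptor genes that set the line. Only 54 of those were above it, so the contrast between the sets can be partly fixed by the rule. It was not computed without the nose receptor genes. The 18 promoters held for macrophage genes had a median of 4 CpG and a GC box in 33.3%; a PU.1 motif (GAGGAAGT, either strand), bound by the product of Spi1, was in 2 of 18, beside 2.44% of all promoters. The CCAAT box (CCAAT, either strand) was in 37.7% of all. A match is a string of letters and not a measured binding site, and these motifs were chosen with the values known. Sox2, Lyz2 and Adipoq are shown because their signals differed by replicate number while their promoters differ in composition. Each is given 5′ to 3′ on the strand of the gene, with GC boxes and CCAAT boxes on either strand in capitals. The Sox2 window (chr2:119464881-119465180, plus strand) has 23 CpG, that of Lyz2 (chr7:54797962-54798261, minus strand) 1, and that of Adipoq (chr11:91240120-91240419, minus strand) 3.
Sox2: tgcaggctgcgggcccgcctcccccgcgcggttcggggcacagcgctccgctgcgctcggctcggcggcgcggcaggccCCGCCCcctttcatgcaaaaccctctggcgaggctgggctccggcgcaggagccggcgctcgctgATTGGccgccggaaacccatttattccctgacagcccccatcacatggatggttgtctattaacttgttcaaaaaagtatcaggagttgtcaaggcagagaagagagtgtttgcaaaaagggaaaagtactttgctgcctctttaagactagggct
Lyz2: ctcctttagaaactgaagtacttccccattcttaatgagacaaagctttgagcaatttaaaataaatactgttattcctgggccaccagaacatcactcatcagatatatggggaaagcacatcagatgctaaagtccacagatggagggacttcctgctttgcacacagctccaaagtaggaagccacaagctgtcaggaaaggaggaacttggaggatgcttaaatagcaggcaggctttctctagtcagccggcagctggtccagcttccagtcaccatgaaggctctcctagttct
Adipoq: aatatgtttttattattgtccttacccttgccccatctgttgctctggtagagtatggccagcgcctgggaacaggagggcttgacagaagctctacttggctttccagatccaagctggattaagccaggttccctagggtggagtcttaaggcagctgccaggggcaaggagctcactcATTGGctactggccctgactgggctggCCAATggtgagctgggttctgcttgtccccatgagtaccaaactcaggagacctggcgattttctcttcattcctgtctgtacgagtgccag
Col1a1 and Col3a1 had no entry.

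The resting state was also read against the drugs, as the genes that crossed the background line. With trimebutine and trametinib 43 genes near background at rest were above it on all 3 treated arrays. Limma tested 42 of them and called 39. Another 183 genes above background at rest were near it on all 3 treated arrays, of which 161 were called. The background of all genes was 17.5% called higher and 17.5% called lower, but a gene that crosses the line has to differ, so these counts support nothing. Tubb3, a neuronal tubulin, had 5.56, 5.52 and 5.78 at rest and a treated mean of 8.56 ± 0.10 (SD, n = 3), and Fndc1 rose from 6.20 ± 0.07 to 8.34 ± 0.10. Omd, a bone proteoglycan, and Cyp1b1, a cytochrome, also crossed upward, by 1.95 ± 0.23 and 1.48 ± 0.12 (SE). In the other direction Mmp10, a stromelysin that had 8.99, 8.98 and 9.36 at rest, was at 5.29 ± 0.21 with treatment, and the mitotic genes Kif23, Ect2, Sgo2 and Esco2 fell below the line. Kif23 went from 8.90 ± 0.14 to 6.10 ± 0.08 (SD, n = 3).

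With alprostadil 5 genes crossed upward, of which 4 were tested, and 15 downward. Crossing genes have to differ here too, so counts of calls among them support nothing. Among them 2 upward and 2 downward were called, or 3 and 5 with the replicate block (background 0.323% higher and 0.066% lower). Those called without it were Mapk10, a stress kinase, from 5.98 ± 0.04 at rest and higher by 1.02, Slc16a6, a transporter, from 6.02 ± 0.14 to 6.68 ± 0.09, C3ar1, a complement receptor of myeloid cells, from 6.83 ± 0.13 to 5.93 ± 0.05, and Ccl4, a chemokine, from 6.76 ± 0.21 to 5.99 ± 0.11 (SD, n = 3). Slc16a6 crossed upward with trimebutine and trametinib too, to 7.85 ± 0.19; both comparisons share the vehicle arrays. The alprostadil calls of Mapk10 and C3ar1 held without each array in turn. That of Slc16a6 was lost when vehicle array 2 or 3 was left out (changes of 0.63 and 0.61) and when alprostadil array 1 or 2 was (0.63 and 0.63), and that of Ccl4 without alprostadil replicate 1 or 2, at changes of −0.71 and −0.76. With trimebutine alone 5 genes crossed upward and 7 downward, of which 2 and 5 had an unadjusted p under 0.05, and limma called 0 of them with or without the block.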

How the data were processed

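Biotin-labelled material from 12 cultures was read on 1-colour arrays, 1 array per culture, per the labels. The deposited log2 signals were made by the authors with RMA in oligo (per the submitters' processing notes), which corrects background, normalizes arrays to each other and summarises the probes of a feature. Differences in the total RNA of a cell are lost by this. Versions and settings are not given in the sources used. The titles gave group and replicate number.

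Of 36685 features, 18511 had 1 symbol in the platform annotation, 575 several and 17599 none; 18394 were found by Entrez identifier in the GRCr8 table and 117 kept their symbol. Where a symbol had several features (291 symbols), the one with the highest mean was taken, giving 18166 genes. Coordinates of features are not given, as the annotation's build is not named.

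Tests used limma 3.58.1 (R 4.3.3) on all 12 arrays, two-sided, over 13636 genes with a mean of at least 5.83 (the 25th percentile), with Benjamini-Hochberg adjustment at 0.05: contrasts with 8 residual degrees of freedom, and a moderated F test of replicate number beside group with 6. Same-numbered arrays deviated together (18 pairs, r from 0.21 to 0.81), and different numbers did not (36 pairs, r from −0.71 to 0.10). Deviations from a group mean cancel out within the group. The low values for different numbers therefore follow from the positive ones and are no separate support. Replicate number was used as a factor because of the same-numbered pairs alone. The p-values of the contrasts measure the spread between cultures of a group. Without a replicate block, that spread includes the differences between replicate numbers. The replicate number test instead takes the cultures that share a number as replicates. Its p-values do not measure the spread between isolates. With 3 arrays a group, the number of arrays limits the precision.

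The text names the 20 brightest genes, the 8 markers, from 37 gene lists the brightest members, those near background and those that differ by replicate number, the 10 genes with the smallest p by replicate number, and up to 10 genes per direction that crossed the background line with an adjusted p under 0.05; genes named beyond these complete a list or were picked with their values known. The members and lists were chosen with earlier results of these data known. On simulated data over 13636 genes, the replicate number test recovered 74% of 50 genes changed by 0.5, 96% at 1 and 2 and 100% at 3, with 7 false among 190 calls; for alprostadil it was 66%, 94%, 100% and 100%, with 6 false among 186, and for trimebutine 64%, 100%, 100% and 100%, with 4 false among 186. The simulated arrays varied independently around each gene's mean, without the shared deviations of same-numbered arrays, so recovery in the real data can differ. Alternatives were other background lines, other features, no filter, centred arrays, a replicate block and arrays left out. Python 3.11.15, pandas 2.3.3, numpy 2.4.6 and matplotlib 3.10.9 were used for tables and figures.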

Additional observations from a re-analysis of the deposited data

How the results depend on the processing

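The number of genes above background, 10778, stayed within 1.5 times under every alternative tried: 12405 and 8265 with the line at the 90th and 99th percentile of nose receptor genes, 13178 at the 25th percentile of features with 1 symbol, 10753 with the dimmest feature, 11283 on mean signals, and 10844 to 11055 without 1 vehicle array. Counts of single lists were less firm: 17 of 37 stayed within 1.5 times throughout, 19 moved with the 99th percentile, and keratinocyte genes went from 3 of 16 to 8 with the 90th. The 53 alprostadil calls became 257 with the replicate block, 160 higher and 97 lower, since that fit removes differences between replicate numbers from the spread, and 30 to 42 when 1 array was left out, with 30 without vehicle replicate 2, 32 without vehicle replicate 3, 34 without alprostadil replicate 1 and 32 without alprostadil replicate 2. Trimebutine with trametinib gave 4768 calls and 5887 with the replicate block, and trimebutine 0 in both, with 143 and 252 genes at an unadjusted p under 0.05. With that block, alprostadil calls among genes that crossed the line went from 2 to 3 upward and from 2 to 5 downward, and among the 100 brightest from 0 to 1. The 1961 calls by replicate number became 860 on the 9 treated arrays alone, which has fewer arrays, and 1444 to 2055 otherwise. Of 198 list genes called by number, 118 kept their call and sign under each of 5 alternatives. The difference of numbers 3 and 1 changed sign with centred arrays for Map2 (to 0.0046), Plk1 (to 0.00017) and Plod2 (to 0.0090) and on the treated arrays for Plk1 (to 0.032), Plod2 (to 0.035) and Tgfa (to −0.039), of which 2 and 1 kept their call. Signals near the background line have no firm order.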

Other observations

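Of the 17599 features without a gene symbol, 5995 (34.1%) were above the background line on all 3 vehicle arrays, beside 59.3% of genes with 1 symbol. They were named by no source used here and entered no comparison. Of the 6 list genes with several features, both features of Ccnb2 (9.84 and 8.63), Col5a1 (9.72 and 8.69), Il13ra1 (10.47 and 10.20) and Lama4 (10.77 and 9.71) were above background, although the members of each pair differed in signal. The features of Ptger2 had the same mean (6.84). Those of Mbp disagreed, 1 above background (6.97) and 1 near it (6.22).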
